A study of Mus musculus with 19 samples.

Results

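The experiment compared immature single-positive (ISP) thymocytes labelled as lacking Raptor with wild-type ISP thymocytes on 7 microarrays of a series of 19. Arrays were chosen by title: 3 arrays of cells from mice labelled Raptorfl/fl (genotype Rptor-/-) and 4 arrays of wild-type (WT) cells. The Rptor-/- mice carried a loxP-flanked Rptor gene and a Cre recombinase driven by the CD2 promoter, which is active in lymphoid cells. The WT animals are labelled as WT without saying whether they carried Cre or the flanked gene, and all animals were C57BL/6. The age and sex of the animals are not given in the labels. ISP cells were sorted as negative for CD4, positive for CD8 and negative for the T-cell receptor β chain, and each array was made from amplified RNA of sorted cells (12 ng of total RNA). The other 12 arrays, of DN3a and γδ T cells, entered only as an alternative fit. Nothing in the labels tells whether the arrays of a genotype are different animals, and the p-values therefore speak only of array-to-array spread, part of which may be technical.

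Raptor is the scaffold that brings substrates to mTORC1, a kinase complex that couples amino acids and growth signals to the synthesis of proteins, lipids and nucleotides. Among its known outputs are ribosome production, translation, activity of the SREBP factors that control sterol and fatty acid genes, and glycolysis. ISP cells are rapidly dividing thymocytes on the αβ branch, past signalling by the pre-T-cell receptor and just before the CD4 and CD8 double-positive stage.

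Values were log2 expression per probe set, and 1 probe set per gene, that with the highest mean over the 7 arrays, gave 22180 genes. Array medians lay between 3.80 and 3.88. They were 3.841, 3.8505 and 3.8772 on the Rptor-/- arrays and 3.7996 to 3.8398 on the WT arrays, so they did not overlap between genotypes. Arrays of the same genotype correlated at r = 0.9936 to 0.9953 (WT) and 0.9955 to 0.9962 (Rptor-/-) over genes, and arrays of different genotype at 0.9883 to 0.9925. The first principal component, with 46.6% of the variance, held the 3 Rptor-/- arrays at 16.2 to 23.1 and the 4 WT arrays at −19.7 to −10.1. WT arrays 2 and 3 lay at opposite ends of the second component (13.9% of the variance), at −18.3 and 17.8, and WT array 4 was the WT array nearest to Rptor-/- on the first. Values for single arrays below are given in the order of the replicate numbers. Unless another fit is named, every adjusted p is from limma fitted on the 7 arrays with Benjamini-Hochberg adjustment over all genes, and a gene was called changed below 0.05. In bulk samples, fewer cells of a type and less RNA per cell cannot be told apart.

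The label was checked against markers. Cd8a, the CD8 α chain, read 11.36, 11.27, 11.21 and 11.48 on the WT arrays and 11.35, 11.38 and 11.40 on the Rptor-/- arrays. Cd8b1 (10.44 to 10.90), Cd24a (11.38 to 11.79), Cd3e (11.34 to 11.67) and the proliferation marker Mki67 (10.19 to 10.59) were also high on every array, where array medians lay between 3.80 and 3.88. None of these was called, but some did not overlap between genotypes. Cd24a was lower in Rptor-/- cells (11.38 to 11.41 against 11.56 to 11.79). Cd3e (11.53 to 11.67 against 11.34 to 11.45) and Mki67 (10.45 to 10.59 against 10.19 to 10.42) were higher. Over all 22180 genes 5.96% were called, and a share near this says nothing of a list. Of 11 measured ISP and thymocyte markers 1 was called, Ptcra, which is described below. Without overlap between genotypes 5 of the 11 were higher and 1 was lower, against 7.75% and 8.96% of all genes. Among lists of other cells that a CD8-positive, TCRβ-negative gate could hold, the calls were 0 of 9 B-cell, 0 of 11 dendritic-cell, 0 of 5 erythroid and 0 of 15 γδ and innate lymphocyte markers, 1 of 14 myeloid markers (Cd68, −0.64) and 1 of 14 thymic stroma markers (Pecam1, 0.39). Their mean levels over list members ranged over the 7 arrays from 3.65 to 3.72 for B cells, 4.69 to 4.86 for dendritic cells, 3.56 to 3.63 for myeloid cells and 4.29 to 4.48 for stroma, with the genotypes intermixed. The defining genes Cd79a (3.55 to 3.74) and Lyz2 (3.01 to 3.51) did not exceed 3.80 on any array. Markers of mature αβ T cells had a median difference of −0.33 over 10 genes. Of these genes 1, Il7r, was called, and the mean level was 5.19 to 5.31 on the Rptor-/- arrays against 5.42 to 5.96 on the WT arrays. Markers of the neighbouring thymocyte stages were also counted. Of 6 double-positive markers 2 were called higher and none lower (1 to 2 with 1 array left out), with a median difference of 0.37. The list's median relative to the WT mean was 0.22, 0.38 and 0.50 on the Rptor-/- arrays and −0.03, −0.20, 0.01 and 0.19 on the WT arrays. Of 8 DN3 markers 2 were higher and 1 was lower (2 higher and 0 to 1 lower with 1 array left out), with a median difference of 0.25. Relative to the WT mean their median was 0.22, 0.18 and 0.27 on the Rptor-/- arrays and −0.02, 0.15, −0.03 and −0.12 on the WT arrays. The part of cells of these stages, or of mature cells, in the results below was not tested. Xist read 11.20, 11.25, 11.14 and 11.17 on the WT arrays and 11.76, 11.84 and 11.96 on the Rptor-/- arrays, and the Y-linked gene Eif2s3y stayed between 1.99 and 2.54 on all 7. Xist was called higher, by 0.66 (SE 0.06).

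Rptor itself, the deleted gene, was only slightly lower. It read 6.49, 6.47, 6.34 and 6.47 on the WT arrays and 6.06, 6.19 and 6.34 on the Rptor-/- arrays, so Rptor-/- array 3 and WT array 3 were level. The difference was −0.24 (SE 0.08), which left 84.4% of the WT signal. It was not called in the 7-array fit (limma adjusted p = 0.128), and an exact two-sided permutation test gave p = 0.1143, where 0.0571 is the smallest these group sizes allow. It was called in the fit of all 19 arrays (adjusted p = 0.0389). That fit gives each gene the same difference by construction and takes the spread also from the DN3a and γδ arrays. A single probe set reads Rptor, its position relative to the deleted part is not known here, and whether its signal measures the deletion was not tested.

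In all, 1321 genes changed with genotype, 569 higher in Rptor-/- cells and 752 lower. Lower genes included enzymes of sterol, fatty acid, nucleotide and energy metabolism, ribosome and mitochondrial genes, heat shock genes and AP-1 genes, and higher genes included transcription factors and receptors of the T lineage, described in turn below. The calls were 5.96% of the 22180 genes tested, with 2.57% called higher and 3.39% called lower, and these shares are the background for every list count. Lists and their members were chosen with earlier results of these data known, so shares above this background are descriptive only. The median difference over all genes was −0.0041. By at least 2-fold, 45 genes rose and 55 fell. Groups did not overlap for 16.7% of all genes, 7.75% higher and 8.96% lower. With 1 array left out the number of calls was 837 without Rptor-/- array 1, 424 without Rptor-/- array 2, 355 without Rptor-/- array 3, 670, 727 and 837 without WT arrays 1, 2 and 3, and 996 without WT array 4. It was 2744 in the fit of all 19 arrays, which called 1293 of the 1321 genes. The calls of 292 genes, 1.32% of all, held whichever single array was left out (115 higher, 177 lower), and examples below are taken from these wherever a list had any. A call said below to hold is one of these 292.

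**Figure D1:**
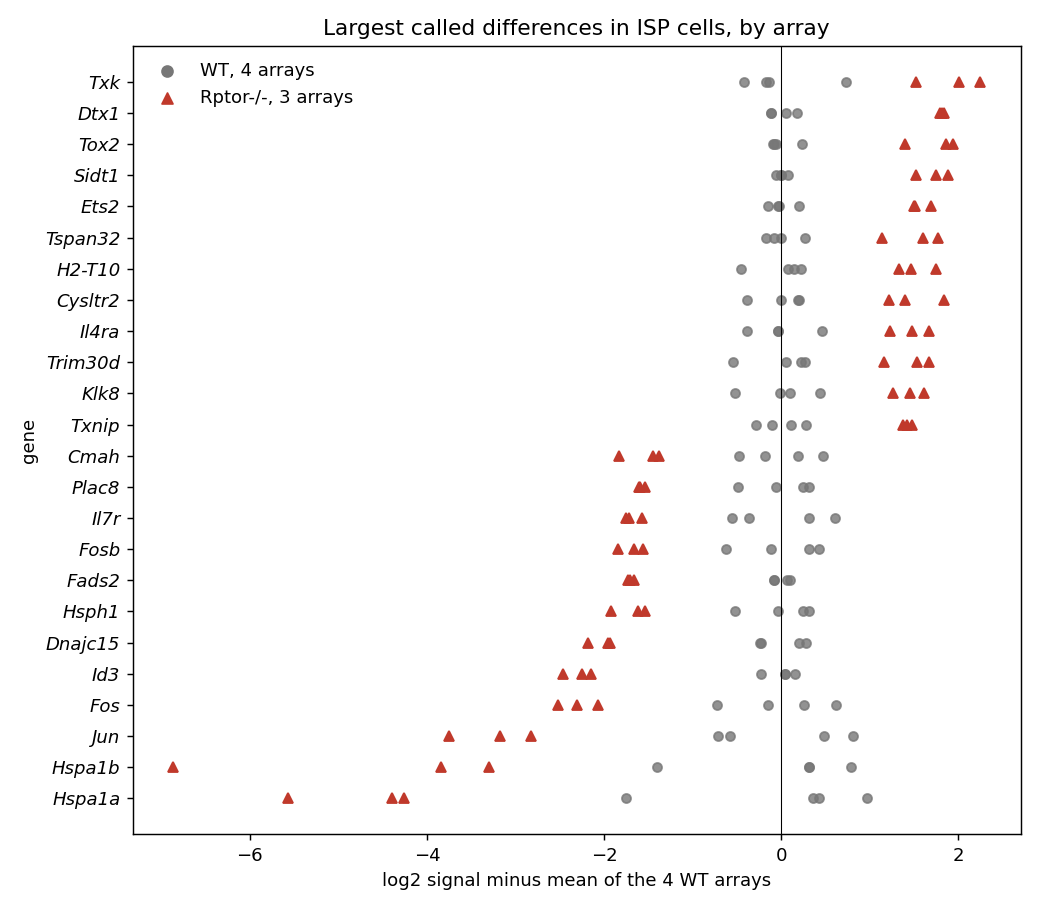
Log2 signal of the 24 ranked genes on each of the 7 arrays, minus the mean of the 4 WT arrays (horizontal axis, log2 units; vertical axis, genes ordered by the mean difference; grey circles WT, red triangles Rptor-/-). The red triangles lie wholly to the right of the grey circles for the 12 higher genes, from Txk at 1.93 to Txnip at 1.42, and wholly to the left for the 12 lower genes, with Hspa1a at −4.74 the farthest.

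**Figure D2:**
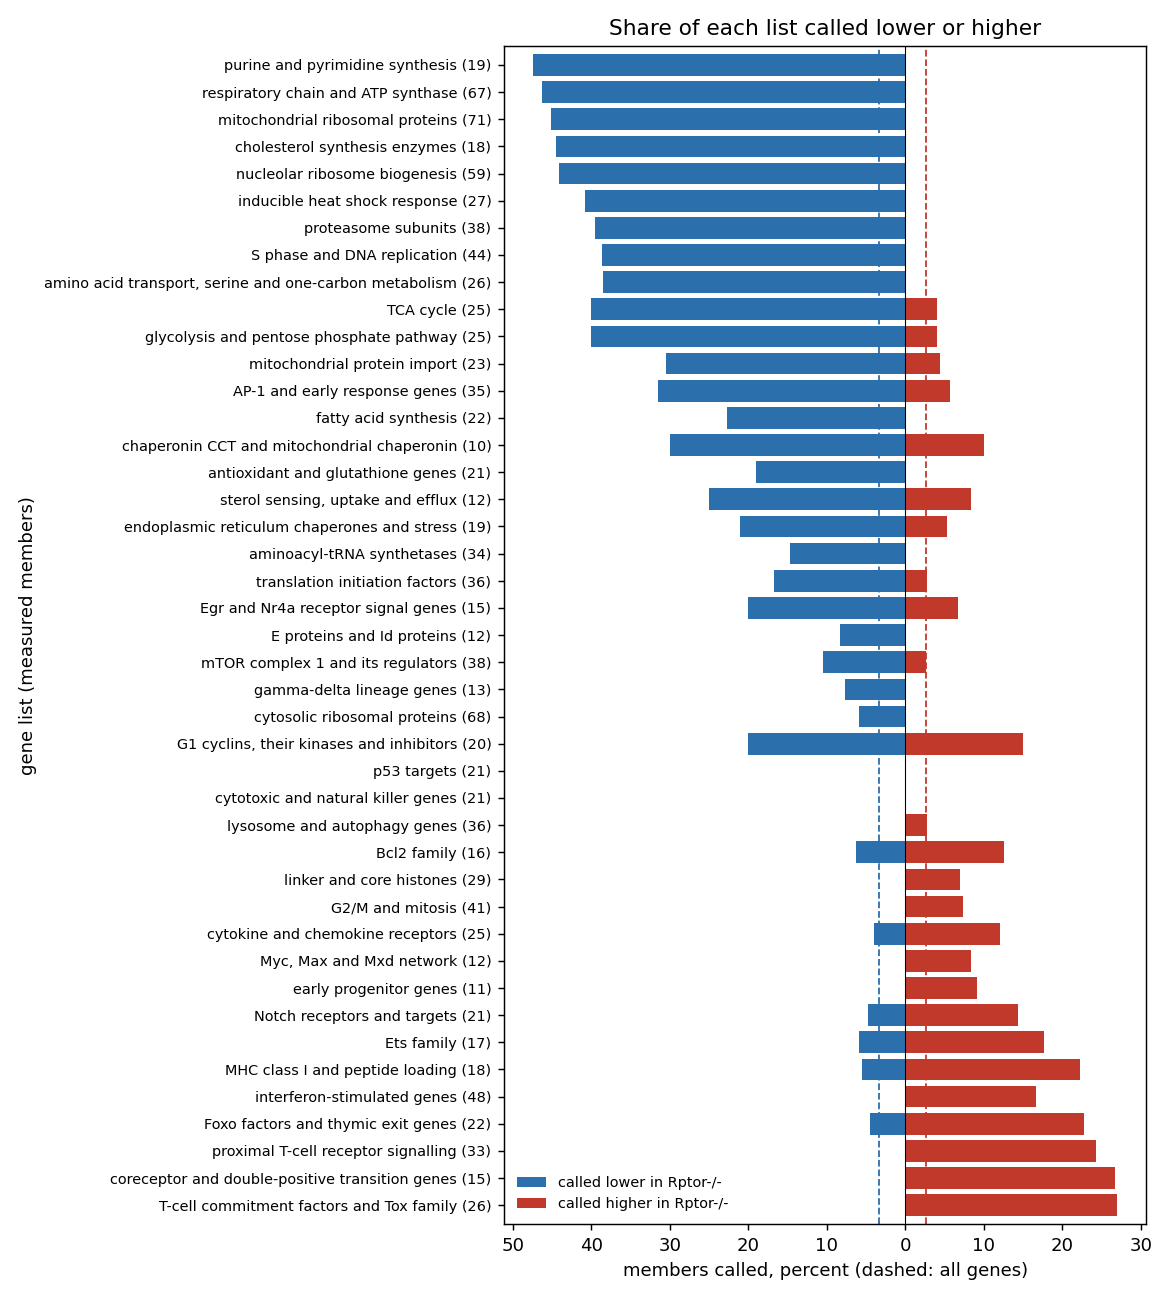
Share of the measured members of 43 gene lists called lower (blue, to the left) or higher (red, to the right) in Rptor-/- ISP cells, in percent of members, with the number of measured members after each name. Dashed lines give the shares over all genes, 3.39% lower and 2.57% higher. Mitochondrial ribosomal proteins, the respiratory chain, purine and pyrimidine synthesis, cholesterol synthesis and nucleolar ribosome biogenesis have the longest blue bars.

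Sterol synthesis genes were lower in Rptor-/- ISP cells. Cholesterol is made from acetyl-CoA through mevalonate, farnesyl diphosphate and squalene, and SREBP2 is the factor that switches these enzymes on when sterols are scarce. Of 18 measured enzymes of the pathway 8 were lower, none was higher and 10 were not called (7 to 9 with 1 array left out), and the median difference was −0.63. The median of the list relative to the WT mean was −0.55, −0.58 and −0.72 on the Rptor-/- arrays and 0.06, 0.06, 0.03 and −0.15 on the WT arrays, so the genotypes did not overlap. At the head of the pathway Hmgcs1, which makes HMG-CoA, read 8.49, 8.46, 8.29 and 7.93 on the WT arrays and 7.12, 6.89 and 6.60 on the Rptor-/- arrays. All 3 Rptor-/- values lay below all 4 WT values, and the difference was −1.42 (SE 0.17, limma adjusted p = 0.00772). Mvk and Pmvk, the mevalonate kinases, and Mvd, the decarboxylase after them, were not called, at −0.31, −0.32 and −0.39. Fdps, which makes farnesyl diphosphate, read 8.97, 9.04, 9.02 and 8.53 on the WT arrays and 7.63, 7.57 and 7.31 on the Rptor-/- arrays, a difference of −1.39 (SE 0.14). Squalene synthase (Fdft1) was at −0.59 (SE 0.07) and squalene epoxidase (Sqle), the next enzyme, at −1.39 (SE 0.11, limma adjusted p = 0.0037). Sqle read 7.95, 8.03, 7.85 and 7.63 on the WT arrays and 6.60, 6.45 and 6.36 on the Rptor-/- arrays, with no overlap.

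The later steps behaved unevenly. Cyp51, the lanosterol demethylase, read 7.19, 7.24, 7.0 and 6.97 on the WT arrays and 5.97, 6.10 and 5.98 on the Rptor-/- arrays, a difference of −1.09 (SE 0.08, limma adjusted p = 0.0037). Msmo1, the methylsterol oxidase, was at −1.29 (SE 0.12) and Sc5d, a desaturase, at −0.67 (SE 0.07). The calls of these 7 enzymes (Hmgcs1, Fdps, Fdft1, Sqle, Cyp51, Msmo1 and Sc5d) held. Nsdhl, the sterol dehydrogenase, was called at −0.77 (SE 0.12), and its call was lost with any one of Rptor-/- arrays 2 and 3 and WT arrays 1 and 2 left out (−0.76 to −0.71, adjusted p = 0.0581 to 0.0864). Hsd17b7 (−0.93) and Lss (−0.51) were not called (adjusted p = 0.058 and 0.0814), nor were Dhcr7, which makes cholesterol in the last step (−0.17), Tm7sf2 (−0.08) and Lbr (0.20), although Lss was called with genes of low signal left out (adjusted p = 0.0361).

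Genes that sense or move sterols were called in both directions. Insig1, which holds SREBP in the endoplasmic reticulum and is itself an SREBP target, read 8.44, 8.30, 8.19 and 8.26 on the WT arrays and 7.43, 7.12 and 7.17 on the Rptor-/- arrays, a difference of −1.06 (SE 0.09, limma adjusted p = 0.00455). Stard4, a sterol carrier, was at −0.82 (SE 0.10), and both calls held. Srebf2, the gene of SREBP2, was called lower at −0.44 (SE 0.08), a call kept only without WT array 4. Mylip, which degrades the LDL receptor and is a target of the sterol-activated LXR factors, was called higher at 0.65 (SE 0.12), a call kept only without WT array 2 or WT array 4. The sterol exporters Abca1 and Abcg1, also LXR targets, were not called, at 0.08 and 0.25, nor were Scap (−0.31) and Srebf1 (−0.14). Over the 12 measured genes of this list 3 were lower and 1 higher (0 to 1 higher and 2 to 3 lower with 1 array left out), with a median of 0.022.

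**Figure D3:**
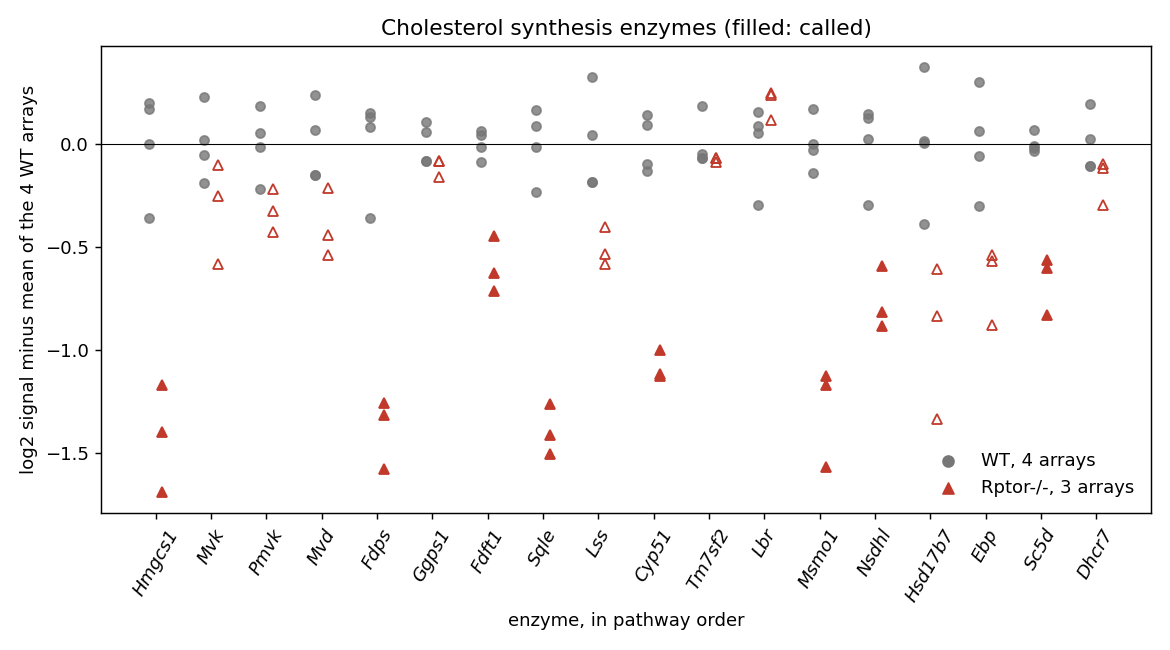
Log2 signal of the 18 measured cholesterol synthesis enzymes, in pathway order from left to right, on each array minus the mean of the 4 WT arrays (vertical axis, log2 units; grey circles WT, red triangles Rptor-/-; filled triangles mark genes called changed). The triangles are filled and far below the circles for Hmgcs1 (mean difference −1.42), Fdps (−1.39) and Sqle (−1.39), and open and close to the circles for Tm7sf2 (−0.08) and Lbr (0.20).

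The upstream sequences of sterol genes are shown because these genes fell together. They are the 250 bases before the RefSeq start (build GRCm38.p6), 5′ to 3′ on the gene's strand, with CCAAT boxes (CCAAT, bound by NF-Y) and the sterol regulatory element searched (TCACNCCAC, bound by SREBP) in capitals, both strands.
Hmgcs1 (chr13:119690101-119690350, plus strand): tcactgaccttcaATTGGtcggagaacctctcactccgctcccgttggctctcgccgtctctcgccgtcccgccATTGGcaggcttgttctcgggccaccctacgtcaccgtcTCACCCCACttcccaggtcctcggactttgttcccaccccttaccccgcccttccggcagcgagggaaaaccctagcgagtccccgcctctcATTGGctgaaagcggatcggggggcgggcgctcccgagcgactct
Cyp51 (chr5:4104698-4104947, minus strand): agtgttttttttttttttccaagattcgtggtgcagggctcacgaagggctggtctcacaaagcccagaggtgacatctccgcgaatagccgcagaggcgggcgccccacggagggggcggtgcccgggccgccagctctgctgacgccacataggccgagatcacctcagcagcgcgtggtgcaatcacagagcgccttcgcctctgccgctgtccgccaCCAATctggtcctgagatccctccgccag
Insig1 (chr5:28071162-28071411, plus strand): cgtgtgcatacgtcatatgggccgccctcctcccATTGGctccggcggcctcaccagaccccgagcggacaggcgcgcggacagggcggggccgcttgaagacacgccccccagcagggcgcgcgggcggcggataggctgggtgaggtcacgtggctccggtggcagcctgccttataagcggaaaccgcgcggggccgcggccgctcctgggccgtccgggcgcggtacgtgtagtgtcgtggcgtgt
Hmgcs1 held the sterol element, starting 137 bases before the gene start, and CCAAT boxes at 237, 176 and 45 bases. Of the 11 sterol genes called lower 7 had an entry in the promoter table, 1 for each. Of these, 1 held the sterol element and all 7 held a CCAAT box, against 1.05% and 33.9% of all 32851 promoters of the same length. Among the 18 promoters of the 15 matched cholesterol enzymes, called or not, 83.3% held a CCAAT box. A match of letters is a description and not a bound site.

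Fatty acid genes fell in fewer numbers. Of 22 measured genes 5 were lower and none was higher (2 to 6 with 1 array left out, fewest without Rptor-/- arrays 2 or 3 or WT array 1), with a median of −0.19. Fads2, the delta-6 desaturase that starts the synthesis of long polyunsaturated fatty acids, read 8.56, 8.60, 8.42 and 8.41 on the WT arrays and 6.84, 6.77 and 6.79 on the Rptor-/- arrays. The spread within each genotype was small beside the gap, and the difference was −1.70 (SE 0.06, limma adjusted p = 0.000516), the smallest adjusted p of all genes. Its partner desaturase Fads1 was not called, at −0.34 (adjusted p = 0.164). Elovl6, which extends palmitate, read 6.48, 6.31, 6.16 and 6.19 on the WT arrays and 5.59, 5.56 and 5.49 on the Rptor-/- arrays, a difference of −0.74 (SE 0.08), and the calls of Fads2 and Elovl6 held. Fasn, fatty acid synthase, was called at −0.61 (SE 0.09), and the call was lost with any one of Rptor-/- arrays 2 and 3 and WT array 1 left out (−0.63 to −0.56, adjusted p = 0.0539 to 0.0743). Acaca and Acly, which supply malonyl-CoA and cytosolic acetyl-CoA, were not called, at −0.42 and −0.31 (adjusted p = 0.0755 and 0.0614). Both were called in the fit of all 19 arrays.

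Genes of ribosome production were lower in Rptor-/- cells. The nucleolus makes ribosomal RNA and assembles it with proteins, and mTORC1 and Myc are known to drive this. Of 59 measured nucleolar factors 26 were lower, none was higher and 33 were not called (14 to 21 with 1 array left out, fewest without Rptor-/- array 3), with a median of −0.37. Relative to the WT mean the list's median was −0.32, −0.33 and −0.44 on the Rptor-/- arrays and 0.03, 0.09, −0.06 and −0.08 on the WT arrays. Rrp9, a protein of the U3 particle that processes ribosomal RNA, read 6.90, 6.74, 7.0 and 6.82 on the WT arrays and 6.10, 6.07 and 6.22 on the Rptor-/- arrays, a difference of −0.74 (SE 0.07). Wdr75 and Heatr1, early processing factors, were at −0.65 (SE 0.05) and −0.67 (SE 0.06). Wdr12, which works on the large subunit, was at −0.60 (SE 0.06), and Dkc1, the pseudouridine synthase that modifies ribosomal RNA, at −0.59 (SE 0.06). The calls of these 5 genes held, as did those of 8 others of the list.

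Few genes of the cytosolic ribosome's own proteins were called. Of 68 measured genes named as cytosolic ribosomal proteins 4 were lower and none was higher (1 to 5 with 1 array left out, fewest without Rptor-/- array 2), with a median of −0.051. Rpl34 was the only call that held. It read 8.27, 8.47, 8.48 and 8.19 on the WT arrays and 7.30, 7.19 and 7.04 on the Rptor-/- arrays, a difference of −1.18 (SE 0.10, limma adjusted p = 0.00408). The genes of this family have many processed copies in the genome, so signals of single members are uncertain. Mitochondrial ribosomal proteins, by contrast, had 32 of 71 lower and none higher (11 to 25 with 1 array left out, fewest without Rptor-/- arrays 2 or 3), with a median of −0.39. Their median relative to the WT mean was −0.34, −0.38 and −0.42 on the Rptor-/- arrays and −0.07, −0.01, 0.14 and −0.04 on the WT arrays. Mrps18b read 8.30, 8.58, 8.40 and 8.37 on the WT arrays and 7.64, 7.61 and 7.54 on the Rptor-/- arrays, a difference of −0.81 (SE 0.07). Mrpl36 was at −1.15 (SE 0.13), Mrpl12 at −0.81 (SE 0.08), Mrpl20 at −0.80 (SE 0.09) and Mrps34 at −0.59 (SE 0.06), and these calls held.

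Other genes of protein synthesis and turnover followed in smaller numbers. Of 36 translation initiation factors 6 were lower and 1 was higher (1 to 6 with 1 array left out, fewest without Rptor-/- arrays 1 or 3 or WT array 1). Eif2s2, the β subunit of eIF2, was at −0.55 (SE 0.07) and was the only call that held, and Eif4a1, the helicase of the cap complex, was the gene called higher, at 0.57 (SE 0.09), lost with any one of Rptor-/- arrays 1 and 2 and WT arrays 1 and 2 left out (0.53 to 0.57, adjusted p = 0.0613 to 0.0886). Of 34 aminoacyl-tRNA synthetases 5 were lower and none was higher (0 to 4 with 1 array left out, fewest without Rptor-/- array 3), with a median of −0.20. Proteasome subunits had 15 of 38 lower and none higher (7 to 12 with 1 array left out, fewest without Rptor-/- array 3), with a median of −0.28. Psma1, of the outer ring, read 9.63, 9.70, 9.71 and 9.65 on the WT arrays and 9.22, 9.10 and 9.05 on the Rptor-/- arrays, a difference of −0.55 (SE 0.05), and the catalytic subunit Psmb5 was at −0.58 (SE 0.07). Psmd1 and Psmd13, of the regulatory cap, were at −0.64 (SE 0.08) and −0.60 (SE 0.07). These calls held.

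Amino acid and nucleotide supply genes were lower too. Among genes of amino acid transport, serine and one-carbon metabolism 10 of 26 were lower and none was higher (2 to 8 with 1 array left out, fewest without Rptor-/- arrays 2 or 3 or WT array 1), with a median of −0.23. Mthfd2, a mitochondrial one-carbon enzyme, read 6.30, 6.27, 6.14 and 6.21 on the WT arrays and 5.65, 5.80 and 5.68 on the Rptor-/- arrays, a difference of −0.52 (SE 0.06), and Slc43a1, a transporter of branched amino acids, was at −0.71 (SE 0.08). Both calls held. In purine and pyrimidine synthesis 9 of 19 were lower and none was higher (1 to 8 with 1 array left out, fewest without Rptor-/- array 3), with a median of −0.38. The call that held was Nme1, a nucleoside diphosphate kinase, at −0.45 (SE 0.05). Rrm1, a subunit of ribonucleotide reductase, which makes deoxynucleotides, was not called (−0.27).

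Genes of glucose use were lower at some steps. Of 25 measured genes of glycolysis and the pentose phosphate pathway 10 were lower, 1 was higher and 14 were not called (4 to 10 with 1 array left out, fewest without Rptor-/- array 2), with a median of −0.31. Taldo1, transaldolase of the pentose phosphate pathway, read 8.08, 8.18, 8.20 and 8.21 on the WT arrays and 7.01, 7.16 and 7.29 on the Rptor-/- arrays, a difference of −1.02 (SE 0.07, limma adjusted p = 0.0037). Pfkl, a phosphofructokinase, read 6.99, 6.94, 6.88 and 6.74 on the WT arrays and 5.98, 6.25 and 6.14 on the Rptor-/- arrays, a difference of −0.76 (SE 0.09). Pgam1, a mutase of lower glycolysis, was at −0.74 (SE 0.10), and Slc16a1, which carries lactate and pyruvate across the membrane, at −0.76 (SE 0.10). These 4 calls held. Ldhb, a lactate dehydrogenase subunit, was the gene called higher, at 0.64 (SE 0.08), and the call was lost without Rptor-/- array 2 (0.62, adjusted p = 0.0521) or Rptor-/- array 3 (0.65, adjusted p = 0.0511). Ldha, the other subunit, read 4.45, 4.54, 4.57 and 4.32 on the WT arrays and 3.90, 3.95 and 4.0 on the Rptor-/- arrays, close to the array medians, where a probe set may be near background and its difference is poorly measured. It was called lower at −0.52 (SE 0.07), and this was lost without Rptor-/- array 2 (−0.52, adjusted p = 0.0513). The glucose transporter Slc2a1 (−0.23) and the hexokinases Hk1 (0.08) and Hk2 (−0.31) were not called.

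Mitochondrial energy genes fell over many subunits by small amounts. In the respiratory chain and ATP synthase 31 of 67 genes were lower and none was higher (5 to 24 with 1 array left out, fewest without Rptor-/- array 3), with a median of −0.29. The list's median relative to the WT mean was −0.31, −0.27 and −0.32 on the Rptor-/- arrays and −0.05, −0.02, 0.10 and −0.02 on the WT arrays. Cycs, cytochrome c, read 10.59, 10.56, 10.77 and 10.60 on the WT arrays and 9.95, 9.85 and 9.78 on the Rptor-/- arrays, a difference of −0.77 (SE 0.07). The complex I genes Ndufa1, Ndufb6 and Ndufc1 were at −0.68 (SE 0.08), −0.63 (SE 0.06) and −0.53 (SE 0.07), and these were the 4 calls that held. In the TCA cycle 10 of 25 were lower and 1 was higher, with a median of −0.22. With 1 array left out, 0 were higher and 2 to 10 lower, fewest lower without Rptor-/- array 3. Fh1, fumarate hydratase, was at −0.76 (SE 0.11) and Sdhb, a succinate dehydrogenase subunit, at −0.51 (SE 0.07), and both held. Genes of mitochondrial protein import had 7 of 23 lower and 1 higher (1 to 6 with 1 array left out, fewest without Rptor-/- array 3). The pore protein Tomm40 read 7.59, 7.79, 7.68 and 7.46 on the WT arrays and 6.87, 6.95 and 6.74 on the Rptor-/- arrays, a difference of −0.78 (SE 0.09), and Timm10b, a small chaperone of the inner membrane route, was the one called higher, at 0.80 (SE 0.10). Both calls held.

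**Figure D4:**
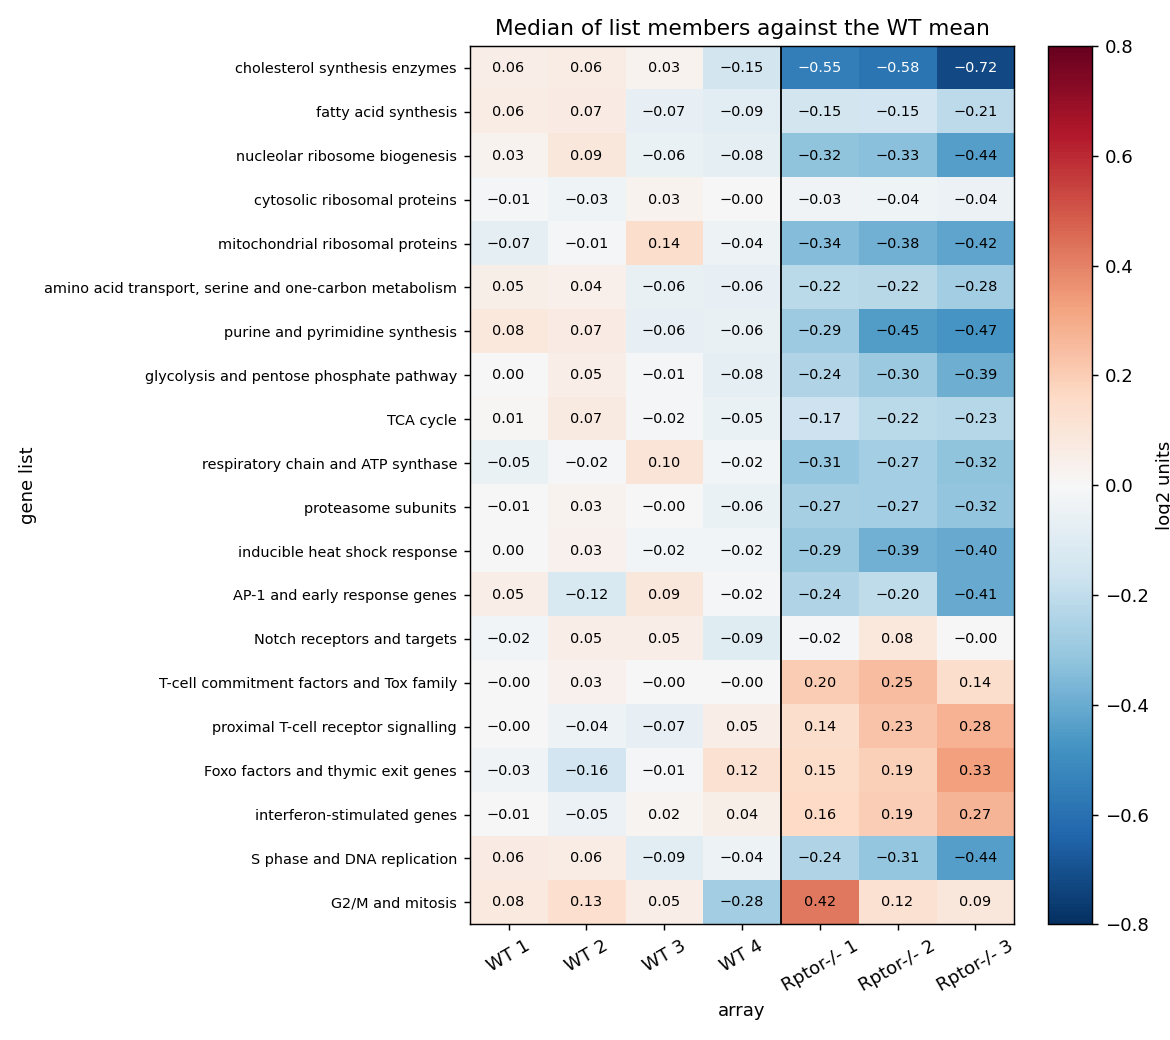
Median over list members of the log2 signal on each array minus the mean of the 4 WT arrays, for 20 lists (rows) and 7 arrays (columns), with the value in each cell (log2 units; blue below the WT mean, red above). Lists of lipid, ribosome and mitochondrial genes are below the WT mean on each of the 3 Rptor-/- arrays. For cytosolic ribosomal proteins these values (−0.04 to −0.03) overlap those of the WT arrays (−0.03 to 0.03). The G2/M list is highest on Rptor-/- array 1 and lowest on WT array 4.

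The widest differences were in inducible heat shock genes. These chaperones are switched on by the factor HSF1 when proteins unfold. Hspa1a, which encodes Hsp70, read 9.44, 9.38, 9.99 and 7.26 on the WT arrays and 4.62, 3.45 and 4.76 on the Rptor-/- arrays. All 3 Rptor-/- values were below all 4 WT values, with WT array 4 lowest of the WT arrays, and the difference was −4.74 (SE 0.67, limma adjusted p = 0.0109). Hspa1b, its near copy, read 10.40, 10.40, 10.88 and 8.69 on the WT arrays and 6.25, 3.23 and 6.79 on the Rptor-/- arrays, a difference of −4.67 (SE 0.92, limma adjusted p = 0.0328). On Rptor-/- array 2 both genes (3.45 and 3.23) lay below the array medians of 3.80 to 3.88, so the sizes of their differences are uncertain. The call of Hspa1a was lost without Rptor-/- array 2 (−4.33, adjusted p = 0.0582) or Rptor-/- array 3 (−4.98, adjusted p = 0.0523), and that of Hspa1b was kept only without WT array 4. Hsph1, an Hsp110 that recharges Hsp70, read 8.03, 8.31, 7.55 and 8.38 on the WT arrays and 6.45, 6.53 and 6.14 on the Rptor-/- arrays, a difference of −1.70 (SE 0.21, limma adjusted p = 0.00816) that held. On WT array 4 Hsph1 was the highest of the WT values, where Hspa1a and Hspa1b were the lowest. Of 27 measured genes of the list 11 were lower and none was higher (1 to 8 with 1 array left out, fewest without Rptor-/- array 3), with a median of −0.38. Hsp90aa1, the stress-responsive Hsp90, was at −0.46 (SE 0.07), lost with any one of Rptor-/- arrays 1, 2 and 3 and WT arrays 1 and 2 left out (−0.49 to −0.43, adjusted p = 0.0503 to 0.0765). Chaperones of the endoplasmic reticulum, a separate stress system, had 4 of 19 lower and 1 higher (0 to 4 with 1 array left out, fewest without Rptor-/- arrays 2 or 3). The one that rose was Edem1, which helps clear misfolded glycoproteins, at 0.61 (SE 0.06), a call that held.

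Upstream sequences of Hspa1a and Hspa1b show how alike the pair is. Capitals mark GAANNTTC, a pair of heat shock units facing each other, and the CCAAT box, and the letters are the 250 bases before the RefSeq start in GRCm38.p6.
Hspa1a (chr17:34972157-34972406, minus strand): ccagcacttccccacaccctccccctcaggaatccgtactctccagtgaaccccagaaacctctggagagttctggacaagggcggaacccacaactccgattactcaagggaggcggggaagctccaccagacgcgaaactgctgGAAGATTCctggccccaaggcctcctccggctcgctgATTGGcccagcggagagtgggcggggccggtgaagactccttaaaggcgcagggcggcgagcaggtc
Hspa1b (chr17:34959239-34959488, minus strand): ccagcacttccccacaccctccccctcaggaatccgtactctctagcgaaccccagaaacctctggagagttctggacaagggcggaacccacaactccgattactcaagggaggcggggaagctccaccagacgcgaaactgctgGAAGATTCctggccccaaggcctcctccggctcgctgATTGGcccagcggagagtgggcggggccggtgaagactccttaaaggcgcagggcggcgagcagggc
The windows were the same at 247 of 250 positions (98.8%). Each held GAAGATTC starting 104 bases before the start and an inverted CCAAT box (ATTGG) starting 67 bases before it. With genes this alike, their signals cannot be assumed to be separate. GAANNTTC, a motif added after the sequences had been seen, lay in 6 of the 27 promoters of the 23 matched heat shock genes (22.2%) and in 6.69% of all promoters, and the longer element of 3 units (the heat shock element) in 2 of the 27 (7.41%) and in 0.466% of all.

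Early response genes fell beside the heat shock genes. AP-1 is a dimer of Jun and Fos proteins, and its genes are induced within minutes by receptor signals and by cell stress. Of 35 genes of the list 11 were lower, 2 were higher and 22 were not called (2 to 10 with 1 array left out, fewest without Rptor-/- array 2), with a median of −0.33. Jun read 8.80, 7.73, 9.12 and 7.60 on the WT arrays and 5.14, 4.56 and 5.49 on the Rptor-/- arrays, a difference of −3.25 (SE 0.43, limma adjusted p = 0.00927). Fos read 7.35, 6.95, 7.71 and 6.37 on the WT arrays and 4.79, 4.57 and 5.03 on the Rptor-/- arrays, a difference of −2.30 (SE 0.30), and Fosb 6.40, 5.86, 6.29 and 5.35 on the WT arrays and 4.41, 4.31 and 4.13 on the Rptor-/- arrays, a difference of −1.69 (SE 0.25). None of these overlapped between genotypes, and WT array 4 was the lowest WT array for all 3. The calls were lost without Rptor-/- array 2 (−3.0, adjusted p = 0.051) for Jun, without Rptor-/- array 2 (−2.18, adjusted p = 0.0542) for Fos, and without Rptor-/- array 2 (−1.70, adjusted p = 0.0649) or Rptor-/- array 3 (−1.62, adjusted p = 0.0712) for Fosb. Junb read 7.57, 7.31, 7.73 and 7.54 on the WT arrays and 6.74, 6.46 and 6.79 on the Rptor-/- arrays, a difference of −0.88 (SE 0.12) that held, as did that of Nfkbiz, an atypical IκB, at −0.46 (SE 0.06), with a dim signal of 3.93 to 4.52 over the 7 arrays. Dusp10, a phosphatase of stress kinases, rose by 0.79 (SE 0.10), a call that held, and Csrnp1 was called at 0.38 with all arrays but in no fit with 1 left out.

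Of 15 genes that report antigen receptor signals 3 were lower (Id3, Nr4a1 and Nr4a2) and 1 was higher (0 to 2 higher and 1 to 3 lower with 1 array left out), with a median of −0.14. The higher gene was Cd6, a co-receptor that restrains signalling, at 0.61 (SE 0.10), lost with any one of Rptor-/- arrays 1, 2 and 3 and WT arrays 1, 2 and 3 left out (0.55 to 0.65, adjusted p = 0.053 to 0.084). Id3, which blocks the E proteins and is induced through Egr factors by pre-T-cell receptor signals, read 8.93, 8.66, 9.04 and 8.93 on the WT arrays and 6.64, 6.74 and 6.43 on the Rptor-/- arrays. The gap between genotypes was far wider than the spread within either, and the difference was −2.29 (SE 0.11, limma adjusted p = 0.00105). Nr4a1, the gene of Nur77, read 8.80, 7.91, 8.29 and 8.48 on the WT arrays and 7.07, 7.01 and 7.14 on the Rptor-/- arrays, a difference of −1.30 (SE 0.19), lost with any one of Rptor-/- arrays 1, 2 and 3 left out (−1.33 to −1.26, adjusted p = 0.0518 to 0.0692). Nr4a2 was at −1.09 (SE 0.14), lost without Rptor-/- array 3 (−1.06, adjusted p = 0.053). Egr1, Egr2 and Egr3, the classic early factors of the pathway, were not called, at −0.14, −0.09 and 0.05, and Egr1 read 6.43, 6.14, 6.83 and 7.23 on the WT arrays and 6.54, 6.57 and 6.45 on the Rptor-/- arrays, with the genotypes overlapping. Cd69, a surface marker of receptor signalling, was not called either (−0.70). Of the other E and Id genes none of 11 was called, with Id2 at −0.19 (adjusted p = 0.554).

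**Figure D5:**
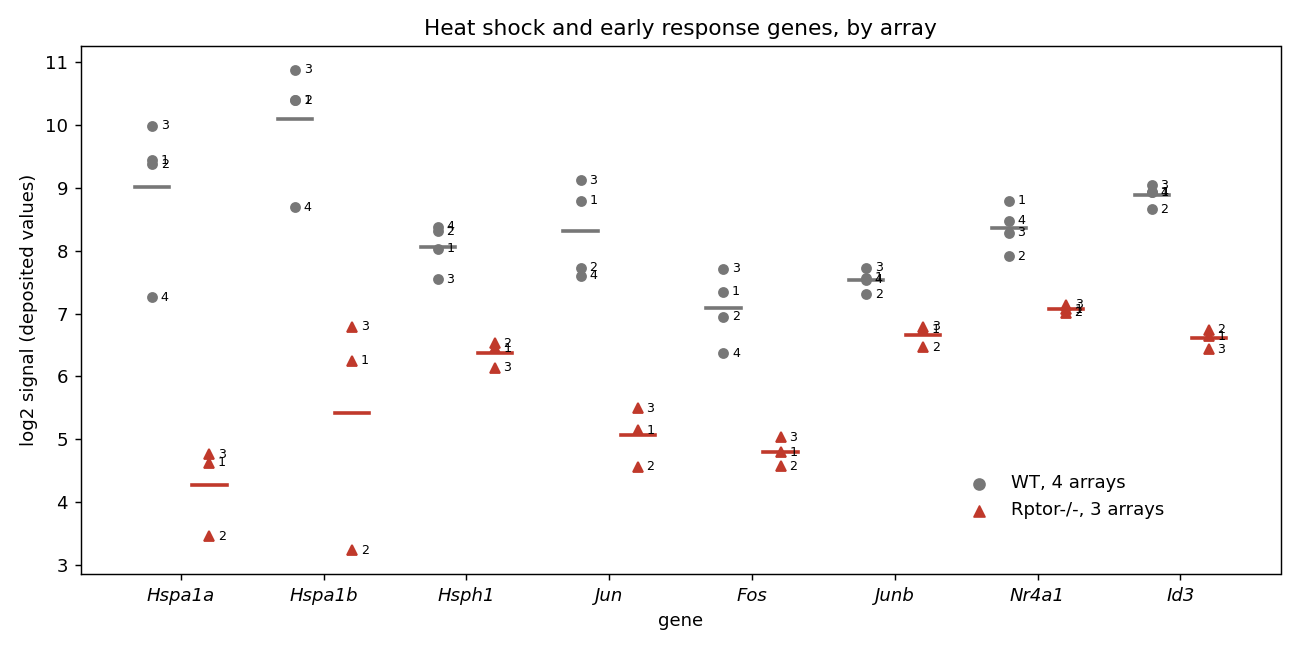
Log2 signal (vertical axis) of 8 genes on the 4 WT arrays (grey circles) and 3 Rptor-/- arrays (red triangles), with horizontal bars at group means and array numbers beside the points. Hspa1a, Hspa1b, Jun and Fos vary by 1 log2 unit or more among WT arrays, while Id3 stays within 8.66 to 9.04 in WT and 6.43 to 6.74 in Rptor-/- cells.

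Notch genes moved in different directions. Notch signals drive early T-cell development and are shut down after the pre-T-cell receptor step. Dtx1, an E3 ligase and Notch target, read 5.55, 5.85, 5.72 and 5.55 on the WT arrays and 7.50, 7.48 and 7.46 on the Rptor-/- arrays, a difference of 1.81 (SE 0.08, limma adjusted p = 0.00105). Notch3, the receptor, read 5.62, 5.62, 5.93 and 5.34 on the WT arrays and 6.88, 7.03 and 7.05 on the Rptor-/- arrays, a difference of 1.36 (SE 0.13, limma adjusted p = 0.00554), and Ptcra, the pre-T-cell receptor α chain, 8.82, 8.93, 8.83 and 8.69 on the WT arrays and 9.38, 9.56 and 9.39 on the Rptor-/- arrays, a difference of 0.63 (SE 0.07). The groups did not overlap for any of the 3 and all calls held. Hes1, another Notch target, went the other way, reading 5.93, 6.09, 6.32 and 5.67 on the WT arrays and 5.42, 4.84 and 4.81 on the Rptor-/- arrays, a difference of −0.98 (SE 0.20) whose call was kept only without Rptor-/- array 1 or WT array 4. Il2ra, also a target, was not called (0.48), nor were Notch1 (0.56, adjusted p = 0.0758) and the partner factor Rbpj (0.14). Notch1 was called in the fit of all 19 arrays. Over the 21 genes of the list 3 were higher and 1 lower, with a median of −0.011 (3 higher and 0 to 1 lower with 1 array left out). The DN3 markers called (Dtx1, Ptcra and Hes1) are all in this list.

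Several transcription factors of the T lineage were higher in Rptor-/- cells. Among 26 commitment factors and Tox family genes 7 rose and none fell (5 to 8 with 1 array left out), with a median of 0.20. Tox2, an HMG-box relative of Tox, read 5.39, 5.71, 5.38 and 5.42 on the WT arrays and 6.87, 7.33 and 7.41 on the Rptor-/- arrays, a difference of 1.73 (SE 0.15, limma adjusted p = 0.00432). Tox, which is needed for CD4 lineage development, read 7.27, 7.39, 7.21 and 7.56 on the WT arrays and 8.04, 8.11 and 8.15 on the Rptor-/- arrays, a difference of 0.74 (SE 0.09). Lef1, a partner of TCF-1 at the β-selection step, was at 0.68 (SE 0.05), Bcl11b, the commitment factor, at 0.57 (SE 0.06), and Ikzf2, the gene of Helios, at 0.60 (SE 0.07). The calls of these 5 genes held.

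Ets2, of the Ets factors, was higher in Rptor-/- cells. It read 9.08, 8.96, 9.07 and 9.31 on the WT arrays and 10.60, 10.80 and 10.62 on the Rptor-/- arrays, a difference of 1.57 (SE 0.09, limma adjusted p = 0.00208) that held. Of the other 16 Ets genes 3 were called, Elf1 (0.33), Elk4 (0.26) and Erf, a repressor, at −0.77. None of these held, the call of Erf being lost without Rptor-/- array 2 (−0.78, adjusted p = 0.0528) or Rptor-/- array 3 (−0.80, adjusted p = 0.0503), that of Elk4 in each fit with 1 array left out, and that of Elf1 being kept only without WT array 4. Ets1, the best known T-cell member, was at 0.31 (adjusted p = 0.0508).

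Signalling genes of the T-cell receptor were higher in part. Of 33 measured genes 8 were higher and none was lower (2 to 7 with 1 array left out, fewest without Rptor-/- arrays 2 or 3), with a median of 0.21. Txk, a Tec family kinase, read 5.73, 5.48, 5.77 and 6.64 on the WT arrays and 7.43, 7.91 and 8.15 on the Rptor-/- arrays, a difference of 1.93 (SE 0.30, limma adjusted p = 0.0142) lost with any one of Rptor-/- arrays 2 and 3 and WT arrays 1 and 3 left out (1.77 to 1.89, adjusted p = 0.0502 to 0.0759). The 2 calls that held were genes of negative regulators. Ptpn22, a phosphatase that damps kinases of the receptor, read 8.39, 8.35, 8.30 and 8.70 on the WT arrays and 9.18, 9.34 and 9.22 on the Rptor-/- arrays, a difference of 0.81 (SE 0.10), and Sla, an adaptor that lowers receptor levels in thymocytes, was at 0.67 (SE 0.07). Ptprc (CD45) and Rasgrp1, a Ras exchange factor, were called at 0.52 (SE 0.07) and 0.67 (SE 0.09), lost without Rptor-/- array 2 (0.51, adjusted p = 0.0566) or Rptor-/- array 3 (0.50, adjusted p = 0.0585) for Ptprc and without Rptor-/- array 2 (0.65, adjusted p = 0.0523) or Rptor-/- array 3 (0.62, adjusted p = 0.0516) for Rasgrp1.

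Genes tied to Foxo factors and to survival changed in both directions. Foxo1, a factor that mTORC2 and Akt hold out of the nucleus, read 6.16, 5.91, 6.06 and 6.21 on the WT arrays and 7.10, 6.93 and 7.05 on the Rptor-/- arrays, a difference of 0.94 (SE 0.08, limma adjusted p = 0.00474). Txnip, an arrestin that limits glucose uptake, read 8.61, 8.22, 8.39 and 8.78 on the WT arrays and 9.87, 9.92 and 9.98 on the Rptor-/- arrays, a difference of 1.42 (SE 0.13, limma adjusted p = 0.00527), and both calls held. Ccng2, an atypical cyclin and Foxo target, was at 0.81 (SE 0.11), lost without Rptor-/- array 3 (0.80, adjusted p = 0.0572). Il7r, the interleukin 7 receptor α chain and a well known Foxo1 target, went down, reading 5.03, 6.19, 5.90 and 5.22 on the WT arrays and 3.87, 3.83 and 4.01 on the Rptor-/- arrays. The groups did not overlap, and the difference was −1.68 (SE 0.28, limma adjusted p = 0.0194), lost with any one of Rptor-/- arrays 1, 2 and 3 and WT array 3 left out (−1.73 to −1.57, adjusted p = 0.0585 to 0.0911). The Rptor-/- values of Il7r lay close to the array medians of 3.80 to 3.88, so the size of its difference is uncertain. Klf2, another target, read 7.59, 6.63, 7.74 and 6.54 on the WT arrays and 5.80, 6.11 and 5.68 on the Rptor-/- arrays and was not called (−1.26, adjusted p = 0.0766), although it was called in the fit of all 19 arrays. Of 22 measured genes of the list 5 were higher and 1 was lower (2 to 5 higher and 0 to 1 lower with 1 array left out, fewest higher without Rptor-/- array 3), with a median of 0.20. Bcl2, which protects from cell death and depends on interleukin 7 signals, was higher, reading 7.06, 6.58, 6.68 and 6.98 on the WT arrays and 7.80, 7.92 and 8.21 on the Rptor-/- arrays, a difference of 1.15 (SE 0.15, limma adjusted p = 0.00889) that held. Its relative Bcl2l1, which serves double-positive cells, was called at 0.44 (SE 0.09), kept only without WT array 1. Of 16 measured Bcl2 family genes these 2 were higher, 1 was lower and 13 were not called, with a median of 0.0036. With 1 array left out, 1 to 2 were higher and 0 to 1 lower.

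Cytokine receptor genes changed singly. Ifngr1, a chain of the interferon γ receptor, read 9.58, 9.41, 9.52 and 9.66 on the WT arrays and 10.66, 10.70 and 10.60 on the Rptor-/- arrays, a difference of 1.11 (SE 0.07, limma adjusted p = 0.00208) that held. Il4ra read 5.55, 5.55, 5.20 and 6.05 on the WT arrays and 7.06, 6.81 and 7.26 on the Rptor-/- arrays, a difference of 1.46 (SE 0.20, limma adjusted p = 0.0102), lost without Rptor-/- array 3 (1.35, adjusted p = 0.0585). Of the 25 measured receptors 3 were higher and 1, Il7r, was lower (1 to 4 higher and 0 to 1 lower with 1 array left out). Genes of the step to the double-positive stage, which hold both double-positive markers called (Aqp11 and Arpp21), had 4 of 15 higher and none lower (1 to 3 higher and 0 to 1 lower with 1 array left out). Aqp11, an aquaporin, read 9.97, 9.85, 10.06 and 10.09 on the WT arrays and 10.52, 10.59 and 10.58 on the Rptor-/- arrays, a difference of 0.57 (SE 0.07) that held. Cd27, a TNF receptor family member, was at 0.83 (SE 0.13), kept only without Rptor-/- array 1 or WT array 4. Cd4 read 6.16, 6.15, 5.79 and 7.38 on the WT arrays and 6.73, 7.01 and 7.0 on the Rptor-/- arrays, so WT array 4 was above and the other 3 WT arrays below the Rptor-/- values, and it was not called (0.54, adjusted p = 0.475). It was called without WT array 4, at 0.88 (adjusted p = 0.0266).

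Interferon-stimulated genes were higher in part. Of 48 measured 8 rose and none fell (2 to 6 with 1 array left out, fewest without Rptor-/- array 2), with a median of 0.19. Ddx58, the RNA sensor RIG-I, read 5.53, 5.59, 5.64 and 5.69 on the WT arrays and 6.45, 6.24 and 6.54 on the Rptor-/- arrays, a difference of 0.80 (SE 0.08), and Igtp, a GTPase that acts on pathogen vacuoles, 7.16, 7.06, 7.17 and 7.38 on the WT arrays and 7.88, 8.04 and 8.16 on the Rptor-/- arrays, a difference of 0.84 (SE 0.10). Both calls held. In the class I pathway 4 of 18 genes were higher and 1 was lower (2 to 3 higher and 0 lower with 1 array left out). H2-T10, a class I-like gene, read 7.33, 7.48, 6.80 and 7.40 on the WT arrays and 9.0, 8.58 and 8.72 on the Rptor-/- arrays, a difference of 1.51 (SE 0.18, limma adjusted p = 0.00762) that held, whereas the classical H2-K1 was called at −0.37 (SE 0.08) with all arrays and in no fit with 1 left out. Class I genes are close copies of each other, so their signals cannot be assumed to be separate.

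The upstream windows of 2 interferon genes called higher, Igtp and Isg15, are printed with the interferon-stimulated response element searched (TTTC, any pair of bases and TTTC again, bound by IRF factors, both strands) in capitals.
Igtp (chr11:58199306-58199555, plus strand): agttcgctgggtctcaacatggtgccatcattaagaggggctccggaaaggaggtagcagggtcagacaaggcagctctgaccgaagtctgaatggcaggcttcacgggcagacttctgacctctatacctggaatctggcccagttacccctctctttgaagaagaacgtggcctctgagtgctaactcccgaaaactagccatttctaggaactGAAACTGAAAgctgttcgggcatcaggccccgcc
Isg15 (chr4:156200819-156201068, minus strand): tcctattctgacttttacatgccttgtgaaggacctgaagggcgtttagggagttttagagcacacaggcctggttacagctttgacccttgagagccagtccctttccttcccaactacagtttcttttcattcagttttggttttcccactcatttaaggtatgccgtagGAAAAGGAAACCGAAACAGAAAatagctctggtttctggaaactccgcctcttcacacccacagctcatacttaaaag
Igtp held the element 34 bases before the start and Isg15 held overlapping copies starting 78, 72 and 66 bases before it. Isg15 was called at 0.43 (SE 0.08), lost with any one of Rptor-/- arrays 1, 2 and 3 and WT arrays 2 and 3 left out (0.40 to 0.46, adjusted p = 0.0638 to 0.111). Of the 8 interferon genes called higher 7 had an entry in the table, with 8 promoters, of which 5 held the element. Those without it were the promoters of Ddx58, whose call held, and of Trim34a, and 1 of the 2 promoters of Trim30a. The windows of Igtp and Irgm2 share long stretches, as do those of Trim30d and the other Trim30a promoter. The 5 promoters with the element are therefore not all separate cases. The element lay in 38.6% of the 44 promoters of the 36 matched interferon-stimulated genes, called or not, and in 2.98% of all promoters.

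Cell cycle genes of S phase were lower in Rptor-/- cells. Of 44 measured S phase and replication genes 17 were lower and none was higher (3 to 14 with 1 array left out, fewest without Rptor-/- array 3), with a median of −0.33. The list's median relative to the WT mean was −0.24, −0.31 and −0.44 on the Rptor-/- arrays and 0.06, 0.06, −0.09 and −0.04 on the WT arrays. Rfc3, of the clamp loader, read 8.39, 8.26, 8.46 and 8.42 on the WT arrays and 7.80, 7.68 and 7.65 on the Rptor-/- arrays, a difference of −0.67 (SE 0.06). Pole2 and Pola2, subunits of replicative polymerases, were at −0.58 (SE 0.07) and −0.51 (SE 0.06), and these 3 calls held. Of 41 G2/M and mitosis genes 3 were higher and none was lower (0 to 2 with 1 array left out), and no call held. The list's median was 0.42, 0.12 and 0.09 on the Rptor-/- arrays and 0.08, 0.13, 0.05 and −0.28 on the WT arrays, so it was set apart mainly by Rptor-/- array 1 and WT array 4, and its difference of 0.23 was 0.13 without Rptor-/- array 1. Of 20 G1 regulators 3 were higher and 4 lower (1 to 2 higher and 0 to 4 lower with 1 array left out), with a median of 0.014. Rbl2, the retinoblastoma relative p130 that keeps cells in quiescence, read 7.0, 7.0, 7.05 and 7.15 on the WT arrays and 7.63, 7.69 and 7.73 on the Rptor-/- arrays, a difference of 0.64 (SE 0.06, limma adjusted p = 0.00455) that held. The D-type cyclins differed, with Ccnd2 called lower at −1.06 (SE 0.18) and Ccnd3 called higher at 0.40 (SE 0.07). The call of Ccnd2 was lost with any one of Rptor-/- arrays 1 and 2 and WT arrays 1 and 2 left out (−1.10 to −0.98, adjusted p = 0.0595 to 0.096), and that of Ccnd3 was kept only without WT array 3. The others called were Cdkn2c at 0.39, Cdk4 at −0.29, E2f3 at −0.38 and E2f4 at −0.40, and none of these calls held. The inhibitor Cdkn1b (p27) was not called (0.21), and Myc, whose targets include ribosome factors, was not called, reading 8.95, 8.98, 9.15 and 8.72 on the WT arrays and 8.84, 9.13 and 8.82 on the Rptor-/- arrays (−0.02, adjusted p = 0.941).

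Lists near the background were those of lysosome and autophagy genes (1 of 36 higher, none lower, median −0.0087), p53 targets (0 of 21, limma), cytotoxic and natural killer genes (0 of 21, limma) and γδ lineage genes (1 of 13 lower). At an unadjusted p under 0.05, 4 p53 targets and 5 cytotoxic genes passed (19.0% and 23.8%), against 19.5% of all genes. The γδ lineage gene called was Il17rb, an interleukin 25 receptor chain, which read 6.62, 6.73, 6.58 and 6.65 on the WT arrays and 5.95, 5.94 and 6.06 on the Rptor-/- arrays, a difference of −0.66 (SE 0.06) that held. In the mTORC1 pathway itself 4 of 38 genes were lower and 1 was higher (0 to 1 higher and 2 to 4 lower with 1 array left out). Sesn3, of the sestrin family that restrains mTORC1, read 6.80, 6.74, 6.60 and 6.76 on the WT arrays and 5.92, 5.91 and 5.82 on the Rptor-/- arrays, a difference of −0.84 (SE 0.06, limma adjusted p = 0.0037). Lamtor1, the lysosomal anchor of the Ragulator complex, was at −0.50 (SE 0.06), and both calls held. Mtor (0.16), Rheb (−0.05) and Rictor (0.46, adjusted p = 0.0629) were not called.

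Of the other genes with the largest changes, Sidt1, whose product spans the membrane and belongs to the SID1 family, read 5.05, 5.13, 4.99 and 5.05 on the WT arrays and 6.58, 6.80 and 6.94 on the Rptor-/- arrays, a difference of 1.72 (SE 0.09, limma adjusted p = 0.00129). Tspan32, a tetraspanin, was at 1.51 (SE 0.17) and Cysltr2, a leukotriene receptor, at 1.49 (SE 0.19). Klk8, a serine protease gene, was at 1.44 (SE 0.21), lost without Rptor-/- array 2 (1.35, adjusted p = 0.0696) or Rptor-/- array 3 (1.43, adjusted p = 0.0693), and Trim30d, of an interferon-inducible cluster, at 1.45 (SE 0.22), lost without Rptor-/- array 1 (1.41, adjusted p = 0.0557) or Rptor-/- array 2 (1.35, adjusted p = 0.0717). Trim30d read 3.06, 2.84, 2.24 and 3.01 on the WT arrays and 4.32, 4.45 and 3.95 on the Rptor-/- arrays, so its WT values lay below the array medians of 3.80 to 3.88 and the size of its difference is uncertain. Among those that fell, Dnajc15, a co-chaperone of mitochondrial import, read 9.05, 9.03, 9.55 and 9.47 on the WT arrays and 7.34, 7.32 and 7.09 on the Rptor-/- arrays, a difference of −2.03 (SE 0.15, limma adjusted p = 0.0037). Plac8 was at −1.58 (SE 0.19). Cmah, which makes the sialic acid Neu5Gc, was at −1.55 (SE 0.23), lost with any one of Rptor-/- arrays 2 and 3 and WT array 2 left out (−1.64 to −1.41, adjusted p = 0.0509 to 0.0689). The calls of Sidt1, Tspan32, Cysltr2, Dnajc15 and Plac8 held. For Sidt1 the mean of all its probe sets gave 0.95 in place of 1.72.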

How the data were processed

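Values were log2 signals per probe set that the authors deposited after RMA in Partek 6.6, per the submitters' processing notes. RMA corrects background, equalises distributions and summarises probes, so global shifts are mostly removed. The medians of the ISP arrays still ranged from 3.80 to 3.88. The sources used here do not tell which arrays shared a normalization. The 12 other arrays had medians of 6.03 to 6.13, so levels were not compared across cell types. Of 41345 probe sets, 23521 carried 1 gene symbol, 1814 several and 16010 none here. Symbols of 23328 were matched to RefSeq (GRCm38.p6) by Entrez ID. The probe set with the highest mean over the 7 arrays stood for each of 22180 genes.

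Genotypes were compared with limma 3.58.1 in R 4.3.3 (lmFit on 2 group means, eBayes), with Benjamini-Hochberg adjustment over all genes and a threshold of 0.05. The script was tested on simulated data. Rptor was also tested by exact permutation. Alternatives were a model of all 19 arrays, a replicate block, each array left out, a filter above the median gene, the mean of all probe sets, centring, quantile normalization, a mean-variance trend and array weights. Members and gene lists were chosen with earlier results of these data known. Named genes were Rptor, the 12 largest rises and 12 largest falls among called genes whose groups did not overlap (unnamed models, olfactory, small RNA and receptor-segment genes skipped), up to 5 members per list and direction with the smallest p (calls that held first), any member of a list of up to 25, and any member called against its list. Mtor, Rheb and Nnat were named after their values were seen. Promoters of 250 bases were taken from RefSeq, 32851 for 27025 genes.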

Additional observations from a re-analysis of the deposited data

Results flagged for a closer look

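In 13 of 213 genes and lists of the report (6.1%), 1 of the 4 WT arrays lay far from the other 3 by Dixon's criterion. Chance gives about 1 in 20. WT array 4 was the array apart in 7, WT array 3 in 3 and WT array 2 in 3. Rptor was 6.34 on WT array 3 and 6.47 to 6.49 on the other WT arrays. Fdps was 8.53 on WT array 4 and 8.97 to 9.04 on the other WT arrays. Tm7sf2 was 6.30 on WT array 3 and 6.05 to 6.07 on the other WT arrays. Srebf1 was 6.76 on WT array 3 and 6.61 to 6.64 on the other WT arrays. Hk1 was 5.15 on WT array 4 and 5.38 to 5.40 on the other WT arrays. Egr2 was 5.95 on WT array 4 and 5.03 to 5.17 on the other WT arrays. Tox2 was 5.71 on WT array 2 and 5.38 to 5.42 on the other WT arrays. Lef1 was 10.31 on WT array 2 and 10.19 to 10.21 on the other WT arrays. Cd27 was 9.14 on WT array 4 and 8.68 to 8.73 on the other WT arrays. Pole2 was 7.32 on WT array 4 and 7.45 to 7.46 on the other WT arrays. Sod2 was 7.78 on WT array 4 and 8.07 to 8.13 on the other WT arrays. The median of cholesterol synthesis enzymes relative to the WT mean was −0.148 on WT array 4 and 0.031 to 0.059 on the other WT arrays. The median of T-cell commitment factors and Tox family relative to the WT mean was 0.034 on WT array 2 and −0.001 to 0 on the other WT arrays.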

How the results depend on the processing

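The number of changed genes was 355 to 996 with 1 array left out (142 to 422 higher, 213 to 574 lower). It was 2744 in the model of all 19 arrays (1295 higher, 1449 lower) and 2025 with genes of low signal left out (888 higher, 1137 lower), where fewer genes were tested. Rptor passed the threshold in the model of all 19 arrays, where its difference of −0.24 is the same by construction and only the spread is estimated anew. Centring arrays gave 578 higher and 910 lower, and quantile normalization 705 higher and 720 lower, against 569 and 752. Replicate numbers are shared by both genotypes, but deviations of arrays with the same number correlated at only 0.0996, 0.0252 and −0.0117, so the number was not taken as a pairing. Deviations of arrays with different numbers correlated at −0.1308 to 0.0793, so the value of the arrays numbered 1 (0.0996) was the highest. Correlations of so few pairs cannot exclude a pairing. With the replicate block limma called 0 genes (0 higher, 0 lower), with 4069 at an unadjusted p under 0.05 against 4325 without it. Of the 125 called genes named in the text, 84 to 125 stayed called under the alternatives other than the block, and none changed sign under any. Of 645 list medians recomputed, 595 moved by less than the spread between arrays. With genes of low signal left out, list medians moved to −0.13 (mTOR complex 1 and its regulators), −0.32 (fatty acid synthesis), −0.39 (amino acid transport, serine and one-carbon metabolism), −0.43 (inducible heat shock response), 0.49 (early progenitor genes), −0.068 (gamma-delta lineage genes), 0.29 (cytotoxic and natural killer genes). With the mean of all probe sets, list medians moved to −0.068 (mTOR complex 1 and its regulators), −0.10 (cytosolic ribosomal proteins). With quantile normalization, list medians moved to −0.08 (mTOR complex 1 and its regulators), −0.021 (cytosolic ribosomal proteins), −0.12 (translation initiation factors), −0.17 (TCA cycle), −0.22 (proteasome subunits), −0.31 (inducible heat shock response), 0.26 (T-cell commitment factors and Tox family), 0.068 (MHC class I and peptide loading). With the replicate block, list medians moved to −0.37 (mitochondrial protein import), −0.093 (E proteins and Id proteins), 0.28 (coreceptor and double-positive transition genes), 0.18 (cytokine and chemokine receptors). With arrays centred on their median, list medians moved to −0.023 (lysosome and autophagy genes). With array weights, list medians moved to 0.0093 (lysosome and autophagy genes). With 1 array left out, medians ranged over −0.12 to −0.072 (mTOR complex 1 and its regulators), −0.044 to 0.047 (sterol sensing, uptake and efflux), −0.37 to −0.25 (glycolysis and pentose phosphate pathway), −0.26 to −0.17 (TCA cycle), −0.37 to −0.27 (mitochondrial protein import), −0.32 to −0.25 (proteasome subunits), −0.013 to 0.0093 (lysosome and autophagy genes), −0.032 to 0.079 (Notch receptors and targets), −0.093 to 0.0062 (E proteins and Id proteins), 0.026 to 0.12 (Ets family), 0.15 to 0.25 (T-cell commitment factors and Tox family), 0.023 to 0.28 (coreceptor and double-positive transition genes), −0.01 to 0.045 (early progenitor genes), −0.0084 to 0.086 (cytotoxic and natural killer genes), 0.079 to 0.18 (cytokine and chemokine receptors), −0.0023 to 0.10 (MHC class I and peptide loading), −0.057 to 0.065 (G1 cyclins, their kinases and inhibitors), 0.015 to 0.13 (p53 targets), −0.052 to 0.023 (Bcl2 family). Small differences that were not called and changed sign were Lyz2 0.01 with the replicate block, −0.16 to 0.02 with an array left out, Myc 0.03 with quantile normalization, 0.01 with array weights, −0.13 to 0.04 with an array left out, Egr1 0.05 with the replicate block, −0.31 to 0.05 with an array left out, Egr2 0.13 with the replicate block, −0.18 to 0.13 with an array left out, Egr3 −0.09 to 0.19 with an array left out. Except where fewer genes or arrays entered, the cause was not tested. Precision is limited by 3 and 4 arrays and, for dim probe sets, by their signal over background.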

Other observations

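Genes of antioxidant defence and chaperonins were lower in part. Of 21 antioxidant and glutathione genes 4 were lower and none was higher (0 to 4 with 1 array left out, fewest without Rptor-/- array 3), with a median of −0.22, and no call held with each array left out. Sod2, the mitochondrial superoxide dismutase, read 8.10, 8.13, 8.07 and 7.78 on the WT arrays and 7.35, 7.33 and 7.27 on the Rptor-/- arrays, a difference of −0.70 (SE 0.09, limma adjusted p = 0.00888) lost without Rptor-/- array 3 (−0.68, adjusted p = 0.0511). Hmox1, which breaks down heme, read 4.48, 4.22, 4.86 and 4.29 on the WT arrays and 3.62, 3.41 and 3.54 on the Rptor-/- arrays, a difference of −0.94 (SE 0.15, limma adjusted p = 0.0182) lost with any one of Rptor-/- arrays 1, 2 and 3 and WT array 1 left out (−0.99 to −0.88, adjusted p = 0.0544 to 0.088). The Rptor-/- values of Hmox1 lay below the array medians of 3.80 to 3.88, so the size of its difference is uncertain. Of 10 chaperonin genes 3 were lower and 1 was higher (0 to 1 higher and 0 to 2 lower with 1 array left out), and none of these calls held with each array left out.

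Nnat, an imprinted gene of neuronal tissue, had the widest upward difference of mean signal among the genes described and was picked after its values were seen. It read 4.97, 5.15, 4.66 and 4.67 on the WT arrays and 10.40, 10.41 and 6.07 on the Rptor-/- arrays, so Rptor-/- arrays 1 and 2 stood far above Rptor-/- array 3, which was itself above the WT arrays. The difference of 4.10 (SE 1.03, limma adjusted p = 0.0697) was not called.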
